A study of Homo sapiens with 15 samples.

Results

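The response of HepG2 cells to weak-cloaked mRNA was examined by setting 3 libraries from cells that received it against 3 libraries from untransfected cells, 6 of the 15 libraries of the series. HepG2 is an established human hepatocellular carcinoma line, described in the labels as wild type. The weak-cloaked group was given 1 µg of eGFP mRNA (enhanced green fluorescent protein, a reporter) in NanoLNP lipid nanoparticles, after treatment of the mRNA with 0.1 M of the reagent CR-3 for 0.5 h at 25 °C. The untransfected group received neither particles nor mRNA, and all cells were lysed 48 h after transfection. The other 9 libraries came from cells that received the same mRNA non-cloaked, medium-cloaked (0.5 M, 1 h, 30 °C) or strong-cloaked (1 M, 2 h, 37 °C), with 3 biological replicates in each group. All cells belonged to 1 line. No group received particles alone, so the effects of particle, mRNA and cloaking cannot be told apart in the comparison with untransfected cells. No row for the reporter was analysed here, so delivery of the mRNA to a given culture was not measured.

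Cells take up lipid nanoparticles by endocytosis. Foreign RNA is sensed in the cytosol by the helicases RIG-I (gene DDX58) and MDA5 (IFIH1), which signal through MAVS and the kinase TBK1, and in endosomes by Toll-like receptors; both routes can switch on NF-kB and interferons, whose target genes limit translation and RNA stability. Particle uptake can also engage general stress programmes, among them immediate early transcription factors, the unfolded protein response of the endoplasmic reticulum and the zinc-binding metallothioneins. In hepatocytes the glucose-6-phosphatase subunit G6PC1 completes glucose release, a step under hormonal and stress control.

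Metallothionein genes and the MAP kinase phosphatase gene DUSP1 were among the transcripts that rose. Their regulation is known to run through short promoter elements, so the promoters of 1 gene of each kind are printed with those letters in capitals. The sequences are RefSeq's for GRCh38.p14, 5′ to 3′ on the gene's strand, and lie before the annotated gene start. For MT1X (chr16:56682220-56682423, plus strand) the capitals mark TGCNCNC, the core of the metal response element bound by MTF1. For DUSP1 (chr5:172771196-172771445, minus strand) they mark the cyclic AMP response element TGACGTCA.
MT1X: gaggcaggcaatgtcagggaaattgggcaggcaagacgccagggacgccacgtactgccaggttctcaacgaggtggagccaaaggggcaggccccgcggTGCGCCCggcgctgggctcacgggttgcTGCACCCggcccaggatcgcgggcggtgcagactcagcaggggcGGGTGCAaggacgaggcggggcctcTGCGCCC
DUSP1: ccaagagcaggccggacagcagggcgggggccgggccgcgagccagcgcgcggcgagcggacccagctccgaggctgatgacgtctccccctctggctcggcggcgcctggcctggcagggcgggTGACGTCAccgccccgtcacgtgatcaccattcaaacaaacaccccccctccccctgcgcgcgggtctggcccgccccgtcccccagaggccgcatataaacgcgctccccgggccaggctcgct

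Both strands were searched in the 250 bases before the RefSeq start. MT1X held 4 matches to TGCNCNC, 3 on the plus strand and 1 on the minus strand, and none overlapped another. Of 34943 RefSeq promoters of the same length, 1.76% held 4 or more and 49.1% held at least 1. MT2A held 7, a number reached by 0.0859% of promoters. DUSP1 held 1 match to TGACGTCA, which 1.63% of promoters held at least once. A match describes letters in a window and was not tested as a binding site.

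Weak-cloaked replicate 1 stood apart from the other libraries of its group and near the untransfected ones, and results are therefore given with and without it. On the first axis of a principal component analysis (21.1% of the variance) the untransfected libraries lay between -70.5 and -68.6. Weak-cloaked replicate 1 lay at -51.6, and replicates 2 and 3 at 35.5 and 44.1. Replicate 1 had the smallest total of the 15 libraries, 57128519 counts, against 66201471 and 74494314 in the other weak-cloaked libraries and 73011663 to 76476960 in the untransfected ones. Its scaling factor was 1.11, close to the 1.13 to 1.15 of untransfected cells and unlike the 0.937 and 0.923 of replicates 2 and 3. The 50 most abundant rows took 19.4% of its counts, against 18.3% to 19.1% in untransfected cells and 22.1% and 21.8% in replicates 2 and 3. By a chi-square per gene, larger for less alike counts, it was as close to non-cloaked replicate 1 (120.2) as to untransfected replicate 2 (120.4). Untransfected replicates 1 and 3 were farther (138.1 and 151.4), and weak-cloaked replicates 2 and 3 farther still (189.8 and 248.1). Non-cloaked replicate 1 lay at -7.81 on the first axis.

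**Figure D1:**
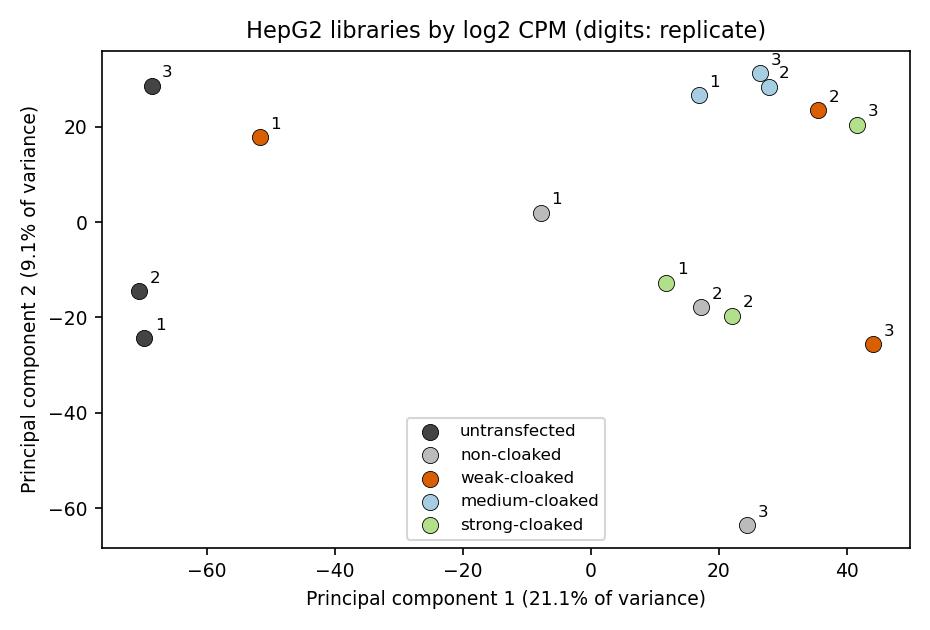
Position of the 15 libraries on the first 2 principal components of log2 CPM, with the share of variance on each axis, coloured by group and numbered by replicate. Weak-cloaked replicate 1 lies at -51.6 on the first axis beside the 3 untransfected libraries, and weak-cloaked replicates 2 and 3 lie at 35.5 and 44.1.

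Gene values are CPM, counts scaled to library size and composition, and a gene was called when its adjusted p in edgeR's quasi-likelihood test was below 0.05 (Benjamini-Hochberg over 18380 tested genes). With all 3 weak-cloaked replicates, 605 genes were called (3.29% of those tested), of which 387 were higher (2.11%) and 218 lower (1.19%). Of these, 266 (1.45%) differed by 2-fold or more. The 3 libraries of each group did not overlap in 3889 tested genes (21.2%), 595 of the 605 among them. Without weak-cloaked replicate 1, 4007 of 18823 genes were called (21.3%), 1896 higher (10.1%) and 2111 lower (11.2%), and 1621 (8.61%) differed by 2-fold or more. All 605 genes were called again with the same sign, and 3402 were added. Replicate 1 was singled out by its position in these data, so the larger count describes replicates 2 and 3 and is no independent test. The shares over all tested genes are the background for the counts of list members below.

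The smaller count also rested on the other libraries. It was 114 without weak-cloaked replicate 2, 126 without replicate 3, and 135, 194 or 395 without untransfected replicate 1, 2 or 3. With the 6 libraries fitted alone, so that the spread came only from them, 4 genes were called and 1 of the 605 was among them. Scaling by total counts moved the median of all genes to -0.23, and calls were then higher in 33.8% of cases instead of 64.0% (1.27% of tested genes higher and 2.49% lower). Higher and lower thus refer to a gene's place among all genes tested. With replicate 1 left out, the same scaling moved that median from -0.06 to -0.34, and 4.44% of tested genes were then called higher and 21% lower. DDIT3, HSPA5, NQO1, TXN, SCD, TNFAIP3, INHBE, SERPINA3, LGALS3, ALDOC, RPL11, RPL37 and TFF1, which are called below with all replicates, did not pass with this scaling and kept their sign. Genes named below without values are not covered by that enumeration. With this scaling 4 immediate early genes rose instead of 6, and 2 YAP and serum response factor targets instead of 3. Of the cytochrome and glucuronosyltransferase genes 3 rose instead of 4. Counts with this scaling are given beside many of the lists.

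**Figure D2:**
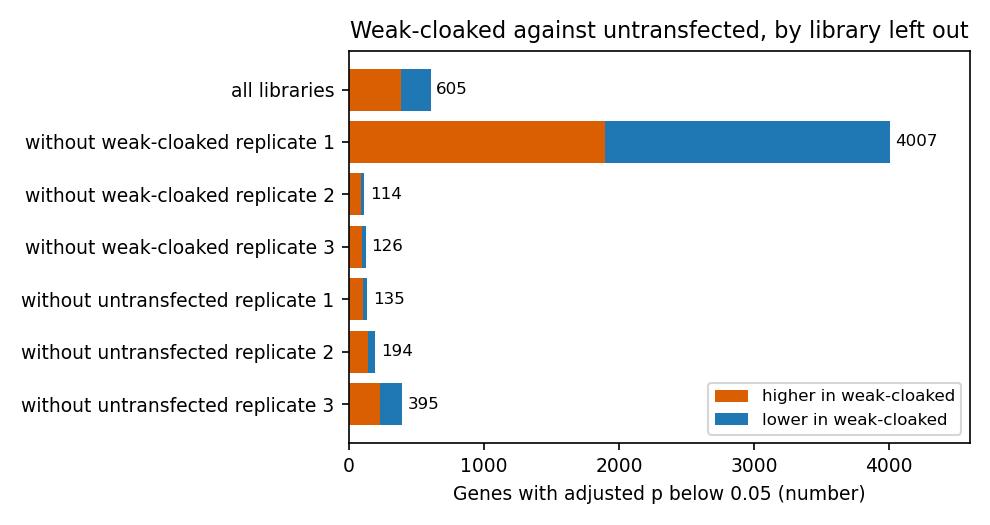
Number of genes with an adjusted p below 0.05 in weak-cloaked against untransfected cells with all libraries and with each of the 6 compared libraries left out, split into higher (orange) and lower (blue). The count is 605 with all libraries and 4007 without weak-cloaked replicate 1, and lies between 114 and 395 when another library is left out.

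Replicate 1 moved with replicates 2 and 3 in part. Among the 605 called genes its median log2 difference from the untransfected mean, counted in the direction of the call, was 0.60, against 1.06 and 1.09 in replicates 2 and 3. It lay inside the untransfected range in 10 of them and nearer to the untransfected mean than to the mean of replicates 2 and 3 in 264. Among the genes called without it, it lay inside the untransfected range in 1645 of 4005 (41.1%), where replicates 2 and 3 did so in 3 and 2. Its median in the direction of the call was 0.15 in these genes, against 0.80 and 0.90 in replicates 2 and 3. In 1143 of them it lay on the opposite side of the untransfected mean. Over all tested genes, 48.2% of replicate 1 values lay inside that range, against 32.3% and 28.7% in replicates 2 and 3. The 605 genes were called with replicate 1 among the libraries, so its shift in them is favoured by that choice. Because the calls without replicate 1 were chosen on replicates 2 and 3, the shares among them describe replicate 1 and test nothing.

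Genes of glucose release changed in both directions. G6PC1, which encodes the glucose-6-phosphatase catalytic subunit (ENSG00000131482, chromosome 17, 42900797 to 42913369 on GRCh38), stood at 39.5, 42.5 and 46.5 CPM in untransfected replicates 1 to 3 and at 4.24, 2.85 and 5.75 CPM in weak-cloaked replicates 1 to 3. The groups did not overlap, and replicate 1 lay between its group mates. The log2 fold change was -3.32 ± 0.36 (SE, n = 3 per group; adjusted p = 0.000767, edgeR), and -3.33 without replicate 1.

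IGFBP1, a secreted binder of insulin-like growth factors that insulin represses (chromosome 7, 45888357 to 45893668), went from 1221, 1485 and 1118 CPM to 636.5, 403 and 318 CPM. All 3 weak-cloaked libraries were below the untransfected ones, replicate 1 least so, and the gene fell by 1.49 on the log2 scale (SE 0.23, adjusted p = 0.00541, edgeR). PPARGC1A, a coactivator that drives gluconeogenic genes, also fell, at -1.24 ± 0.28 (adjusted p = 0.0341). In the opposite direction, SIK1, a kinase that restrains the gluconeogenic programme (chromosome 21, 43414483 to 43427189), went from 28.5, 31.2 and 29.7 CPM to 44.2, 84.0 and 83.3 CPM and rose by 1.24 ± 0.20 (adjusted p = 0.00683). PCK1, the enzyme of the first committed step of gluconeogenesis, rose by 1.97 ± 0.34 (adjusted p = 0.0109) from 7.04, 10.2 and 11.4 CPM to 19.98, 51.3 and 40.5 CPM. The aminotransferase gene GOT1 rose by 0.98 ± 0.16 (adjusted p = 0.00922). Of 20 tested genes in this list, 3 rose, 3 fell and 14 did not pass, with a median of -0.29 against -0.03 over all tested genes. Of all tested genes 2.11% rose and 1.19% fell. Without replicate 1, 5 of the list rose and 3 fell, where 10.1% of all tested genes rose and 11.2% fell.

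Among 13 glucose transporter genes SLC2A10 rose, by 3.60 ± 0.82 (adjusted p = 0.0354, edgeR; chromosome 20, 46709487 to 46736347). Its values were 0.0729, 0.995 and 0.581 CPM in untransfected cells and 12.5, 2.45 and 5.22 CPM in weak-cloaked cells, the highest of them in replicate 1. In the list of 31 genes of hypoxia and glycolysis, 3 were called and all of them rose: CA9, a carbonic anhydrase induced by hypoxia, and the glycolytic enzymes GAPDH and ALDOC. CA9 (chromosome 9, 35673856 to 35681159) went from 93.7, 131 and 63.3 CPM to 187, 236 and 281 CPM (1.29 ± 0.23, adjusted p = 0.0136), and GAPDH from 3673 to 4942 CPM to 5574, 7697 and 8188 CPM (0.71 ± 0.15, adjusted p = 0.0262). Replicate 1 was above every untransfected library for both genes. The list median in replicate 1, 0.42, lay with the 0.35 and 0.37 of replicates 2 and 3, while untransfected replicate 2 reached 0.28. Without replicate 1, 8 of the 31 rose, HK1, PFKM, ALDOA, TPI1 and PGK1 being added. With total-count scaling 5 rose and 1 fell without replicate 1. Of all tested genes 10.1% rose and 11.2% fell without replicate 1, or 4.44% and 21% with that scaling.

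**Figure D3:**
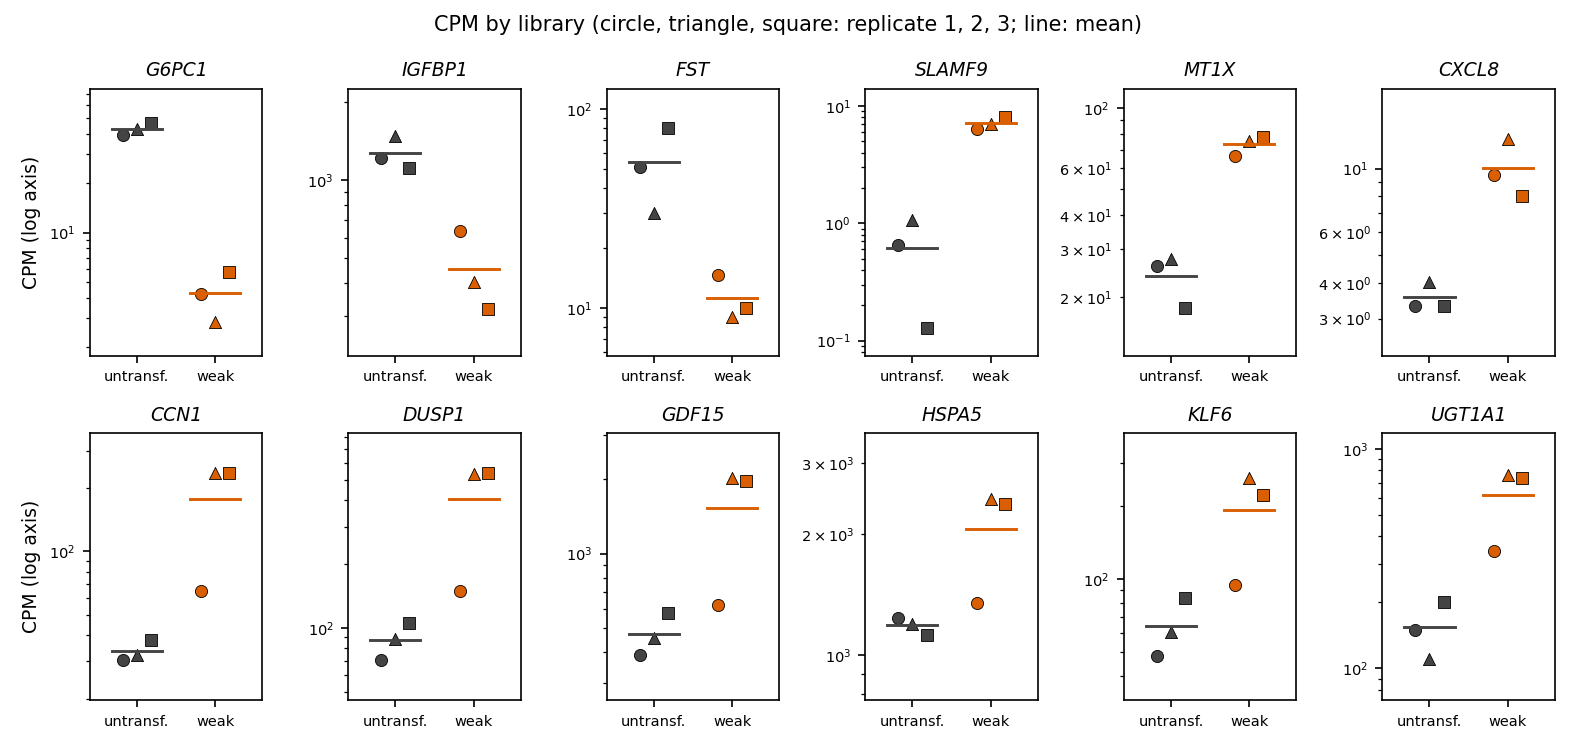
CPM on log axes in the 3 untransfected (grey) and 3 weak-cloaked (orange) libraries for 12 genes, with a circle, triangle and square for replicates 1, 2 and 3 and a line for the mean. G6PC1, FST, SLAMF9, MT1X and CXCL8 have replicate 1 beside its group mates, while DUSP1, CCN1, GDF15, HSPA5 and KLF6 have it nearer the untransfected libraries. In UGT1A1 it lies between the groups.

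Several genes of metallothioneins, small cysteine-rich proteins that bind zinc and copper, rose. MT1X (chromosome 16, 56682424 to 56684196) went from 25.9, 27.6 and 18.2 CPM to 66.5, 75.6 and 78.04 CPM. The groups were separate and replicate 1 sat with the others, at 1.62 ± 0.19 (adjusted p = 0.00139, edgeR). MT2A (56608199 to 56609497 on the same chromosome) went from 98.2, 120 and 80.3 CPM to 153, 272 and 257 CPM and rose by 1.19 ± 0.21 (adjusted p = 0.0116). MT1A rose by 2.08 ± 0.31 (adjusted p = 0.00447) at 0.863 to 1.98 CPM before and 3.68 to 7.19 CPM after.

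With MT1B and MT1G, 5 of 12 tested genes of the list rose and none fell (3 rose with total-count scaling), and the list median was 0.47. Of all tested genes 2.11% rose, or 1.27% with that scaling. Metallothionein genes are near-identical copies, so counts may be split among them. MTF1, the transcription factor that binds the element printed above, was at 0.17 ± 0.16 (adjusted p = 0.558, edgeR), and the zinc exporter gene SLC30A1 at 0.42 ± 0.17 (adjusted p = 0.168). Without replicate 1 the same number of genes rose and the zinc and manganese transporter genes SLC39A10 and SLC30A10 fell. SLC30A10 stood at 3.90, 6.41 and 4.11 CPM in untransfected cells and at 3.86, 0.854 and 1.38 CPM in weak-cloaked cells, with replicate 1 below but close to the untransfected range.

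Of 27 targets of NRF2, the factor of oxidative defence, and iron-storage genes, 4 rose and none fell. FTL, the ferritin light chain (chromosome 19, 48965301 to 48966878), went from 5834, 4738 and 5711 CPM to 6865, 10890 and 11500 CPM, a rise of 0.85 ± 0.18 (adjusted p = 0.0252, edgeR) in which replicate 1 made the smallest step. The quinone reductase gene NQO1 rose by 0.42 ± 0.09, the thioredoxin gene TXN by 0.40 ± 0.09, and PIR also passed. Without replicate 1, 8 rose, with SRXN1, FTH1, OSGIN1 and CBR1 added. With total-count scaling 1 rose with all replicates, and 2 rose and 3 fell without replicate 1. The shares of all tested genes that rose were 2.11% with all replicates and 10.1% without replicate 1. With that scaling they were 1.27% and 4.44%, and 21% of all tested genes fell without replicate 1.

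Immediate early genes, transcription factors and RNA-binding proteins induced within minutes of a stimulus, rose in part at 48 h. Of 26 tested, 6 rose and none fell (JUND, ATF3, KLF6, BTG2, ZFP36 and MAFF), with a median of 0.63, where 2.11% of all tested genes rose. KLF6 (chromosome 10, 3775996 to 3785281) went from 48.4, 60.9 and 83.8 CPM to 94.5, 262 and 222 CPM. Replicate 1 was above the untransfected libraries but far below its group mates, and the change was 1.58 ± 0.34 (adjusted p = 0.0279, edgeR), or 1.91 without replicate 1. ATF3, a stress-induced repressor, went from 17.9, 29.7 and 34.4 CPM to 34.6, 97.4 and 105 CPM (1.53 ± 0.34, adjusted p = 0.0319), with replicate 1 just above the highest untransfected value. BTG2, an antiproliferative factor, rose by 0.63 ± 0.13 (adjusted p = 0.0216).

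Without replicate 1 the number of immediate early genes that rose was 14, now with FOS, FOSB, JUN, JUNB, NR4A1 and NR4A2 among them. Of all tested genes 10.1% rose in that fit. FOS stood at 6.32, 7.16 and 9.92 CPM in untransfected cells and at 9.56, 26.2 and 22.1 CPM in weak-cloaked cells, so that replicate 1 lay inside the untransfected range. In 6 of the 14, replicate 1 lay inside that range, as it did in 41.1% of all genes called without it. The list median per library was 0.20 in replicate 1, 0.69 and 0.95 in replicates 2 and 3, and between -0.11 and 0.09 in untransfected cells.

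DUSP1, the phosphatase that switches off p38 and JNK kinases (chromosome 5, 172768090 to 172771195), showed the same order. It stood at 70.5, 88.2 and 105 CPM in untransfected cells and at 149, 533.5 and 536 CPM in weak-cloaked cells. All 3 weak-cloaked values were higher, replicate 1 by much less, and the rise was 2.21 ± 0.43 (adjusted p = 0.0208, edgeR), or 2.60 without replicate 1. DUSP5, the nuclear ERK phosphatase, rose by 0.69 ± 0.15 (adjusted p = 0.0290), and these were the 2 of 18 MAP kinase feedback genes that passed. Over all tested genes 2.11% were called higher with all replicates and 10.1% without replicate 1. Without replicate 1, 5 of the 18 rose and ERRFI1, an inhibitor of the epidermal growth factor receptor, fell; it stood at 491, 651 and 468 CPM in untransfected cells and at 602, 272 and 261 CPM in weak-cloaked cells, with replicate 1 inside the untransfected range. With total-count scaling 3 rose and 4 fell without replicate 1, where 4.44% of all tested genes rose and 21% fell.

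CCN1, a matricellular protein induced by the coactivator YAP and by serum response factor (chromosome 1, 85580761 to 85583962), was 1 of the 8 largest increases. It went from 30.5, 32.1 and 38.2 CPM to 65.2, 235.3 and 235.1 CPM. Replicate 1 was above untransfected cells and well below replicates 2 and 3, which were almost equal. The rise was 2.41 ± 0.41 (adjusted p = 0.0116, edgeR), or 2.80 without replicate 1. Of 23 YAP and serum response factor targets 3 rose (CCN1, TAGLN and CNN2) and AJUBA, an adaptor of the Hippo pathway, fell from 79.2 to 81.6 CPM to 50.1, 31.3 and 34.9 CPM (-1.05 ± 0.25, adjusted p = 0.0412). Without replicate 1, 8 rose, among them the actin genes ACTB and ACTG1 and the filamin gene FLNA, and 2 fell. With total-count scaling 7 rose and 6 fell without replicate 1. Of all tested genes 10.1% rose and 11.2% fell without replicate 1, or 4.44% and 21% with that scaling.

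Several growth-arrest and integrated stress response genes rose. Of 25 p53 targets 5 rose (CDKN1A, BBC3, GADD45A, PLK2 and PLK3) and none fell. PLK3, a stress-responsive kinase (chromosome 1, 44800225 to 44805990), went from 12.4, 22.6 and 29.3 CPM to 37.0, 131 and 143 CPM (2.27 ± 0.45, adjusted p = 0.0214, edgeR). GADD45A, a growth-arrest protein, went from 76.9, 81.2 and 132 CPM to 149, 439 and 424 CPM (1.80 ± 0.34, adjusted p = 0.0184). In both genes replicate 1 was above every untransfected library and nearer to them than to its group mates. CDKN1A, the cell-cycle inhibitor p21, rose by 1.01 ± 0.21 (adjusted p = 0.0226). MDM2, the p53 ubiquitin ligase that p53 itself induces, was among 3 genes of this list that fell without replicate 1, with XPC and TIGAR, while 10 rose. Of all tested genes 2.11% rose with all replicates, and 10.1% rose and 11.2% fell without replicate 1. With total-count scaling 7 p53 targets rose and 3 fell without replicate 1, where 4.44% of all tested genes rose and 21% fell.

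GDF15, a secreted stress hormone (chromosome 19, 18374731 to 18389176), went from 390, 456 and 575 CPM to 619, 2008 and 1965 CPM. Replicate 1 was just above the highest untransfected library, and the rise was 1.69 ± 0.37 (adjusted p = 0.0306, edgeR), or 2.06 without it. DDIT3, the transcription factor CHOP, rose by 1.22 ± 0.29 (adjusted p = 0.0381). These were the 2 of 24 ATF4 targets called, where 2.11% of all tested genes were called higher. PPP1R15A, which reverses the translational block of the stress response, stood at 47.4, 57.7 and 43.6 CPM in untransfected cells and at 62.0, 217 and 219 CPM in weak-cloaked cells (1.74 ± 0.45, adjusted p = 0.0527), and was called without replicate 1 (2.13, adjusted p = 0.00197). The list median changed sign with total-count scaling, from 0.19 to -0.02.

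Some chaperone genes rose without replicate 1: 12 of 25 in the unfolded protein response list and 6 of 22 in the cytosolic heat shock list, where 10.1% of all tested genes rose. With total-count scaling the counts were 6 higher and 6 lower in the first list and 3 higher and 3 lower in the second. Of all tested genes 4.44% were then higher and 21% lower. HSPA5, the main chaperone of the endoplasmic reticulum (chromosome 9, 125234853 to 125241330), stood at 1240, 1197 and 1126 CPM in untransfected cells and at 1346, 2447 and 2382 CPM in weak-cloaked cells. It was the only 1 of 25 unfolded protein response genes called with all replicates (0.79 ± 0.20, adjusted p = 0.0484, edgeR). The genes added without replicate 1 included PDIA4, DNAJB11, CALR and HERPUD1, and the sensor kinase gene EIF2AK3 fell. Replicate 1 lay inside the untransfected range in 6 of the 13 genes called without it, against 41.1% of all genes so called.

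None of 22 cytosolic heat shock genes was called with all replicates, and the 6 that rose without replicate 1 were HSPA1A, HSPA1B, HSPB1, HSPE1, HSP90AB1 and DNAJB1. DNAJB1, a co-chaperone of HSP70, stood at 138.5, 109.5 and 166 CPM in untransfected cells and at 139.5, 642 and 650 CPM in weak-cloaked cells. Replicate 1 was inside the untransfected range and replicates 2 and 3 were about level with each other, far above it (2.22 ± 0.45, adjusted p = 0.00577 without replicate 1; adjusted p = 0.0845 with it, edgeR). HSPA1B, whose near-identical copy HSPA1A makes its counts uncertain, stood at 414, 255 and 513 CPM in untransfected cells and at 330.2, 2249 and 2114 CPM in weak-cloaked cells.

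A few genes of cholesterol supply rose. DHCR7, the last enzyme of cholesterol synthesis (chromosome 11, 71428193 to 71452868), went from 99.9, 96.0 and 91.9 CPM to 117, 172 and 200.3 CPM. All weak-cloaked values were higher, replicate 1 least so, and the rise was 0.76 ± 0.17 (adjusted p = 0.0321, edgeR), or 0.95 without replicate 1. It was 1 of 3 genes called among 26 in the cholesterol list, all of them higher, and 9 rose without replicate 1, with FDFT1, SQLE, MSMO1, EBP and SREBF2 among those added. MSMO1, a sterol oxidase, stood at 97.2, 91.6 and 127 CPM in untransfected cells and at 115, 284 and 310.0 CPM in weak-cloaked cells, with replicate 1 inside the untransfected range. Of 21 genes of fatty acid and triglyceride synthesis 2 rose, the acyltransferase AGPAT2 (0.96 ± 0.14, adjusted p = 0.00480) and the desaturase SCD (0.50 ± 0.10, adjusted p = 0.0214), both with replicate 1 above all untransfected libraries. CIDEC, a lipid droplet protein, rose from 6.47 to 9.16 CPM to 16.2, 19.2 and 22.3 CPM (1.24 ± 0.18, adjusted p = 0.00447), 1 of 20 PPAR target and lipid droplet genes; the medians of these last lists, 0.16 and 0.10, became -0.04 and -0.10 with total-count scaling, where 3 genes of the PPAR list fell. With that scaling 6 cholesterol genes rose without replicate 1. Over all tested genes 2.11% were called higher with all replicates and 10.1% without replicate 1, before that scaling.

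Without replicate 1, 11 of 21 genes of RNA sensing fell, where 11.2% of all tested genes fell; with all replicates none of them did. Of the 12 genes of the list called without replicate 1, it lay inside the untransfected range in 5, against 41.1% of all genes so called. DDX58 (RIG-I) stood at 2.50, 2.76 and 1.32 CPM in untransfected cells and at 2.04, 0.484 and 0.858 CPM in weak-cloaked cells. Replicate 1 lay inside the untransfected range and the other weak-cloaked values below it, and the change was -0.96 ± 0.44 (adjusted p = 0.209, edgeR) with all replicates and -1.72 (adjusted p = 0.00779) without replicate 1. TRAF6, a ubiquitin ligase in this signalling, stood at 6.13, 5.19 and 5.82 CPM against 5.04, 2.40 and 1.95 CPM, with replicate 1 just below the untransfected values. DHX58, the regulatory helicase LGP2 (chromosome 17, 42101404 to 42112733), went the other way, from 0.681, 1.34 and 0.825 CPM to 2.86, 3.89 and 3.42 CPM, with replicate 1 beside its group mates (1.84 ± 0.30, adjusted p = 0.00719).

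DHX58 was the 1 gene of 21 in the RNA-sensing list called with all replicates. Without replicate 1, DHX58 rose, and the genes that fell were DDX58, IFIH1, MAVS, MYD88, TRAF3, TRAF6, TBK1, IKBKE, EIF2AK2, TRIM25 and DHX36. The list median per library was 0.01 in replicate 1 and -0.77 and -0.54 in replicates 2 and 3. Transcript length and GC content moved with these values: genes in the top quartile of transcript length had a median of -0.20 and -0.29 in replicates 2 and 3 and those in the bottom quartile of GC -0.22 and -0.54, against 0.04 and 0.12 in replicate 1. With offsets for length and GC the median of the RNA-sensing list without replicate 1 went from -0.58 to -0.38, that of all genes went from -0.06 to 0.07, and 9 genes of the list fell instead of 11 (7.99% of all tested genes fell). Over all genes 63.0% of calls, instead of 47.3%, were then higher, and 3028 of the 4007 calls were made again with the same sign.

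Of 40 interferon-stimulated genes 3 rose and none fell with all replicates, where 2.11% of all tested genes rose and 1.19% fell, and the median was -0.04. ISG15, a ubiquitin-like antiviral modifier (chromosome 1, 1001138 to 1014540), went from 28.5, 26.0 and 26.8 CPM to 37.5, 51.4 and 57.6 CPM (0.85 ± 0.16, adjusted p = 0.0141, edgeR), with replicate 1 above all untransfected libraries and below its group mates. OAS1, which makes the activator of RNase L (chromosome 12, 112906777 to 112933222), went from 27.9, 23.8 and 19.1 CPM to 38.1, 37.7 and 41.7 CPM (0.73 ± 0.13, adjusted p = 0.0118), with replicate 1 level with the others. IFI27 rose by 0.86 ± 0.18 (adjusted p = 0.0252) at 1.96 to 4.68 CPM. Without replicate 1, 8 rose and 9 fell, where 10.1% of all tested genes rose and 11.2% fell. Those that rose included the membrane proteins IFITM1, IFITM2, IFITM3 and BST2, and those that fell included MX1, MX2, IFIT5, PARP9, PARP12 and EIF2AK2. With total-count scaling 6 rose and 13 fell without replicate 1, where 4.44% of all tested genes rose and 21% fell. With offsets for length and GC 8 rose and 5 fell without replicate 1, and 7.99% of all tested genes fell. The list median then went from -0.07 to 0.04.

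Among 21 NF-kB targets and cytokine genes 3 rose and none fell. CXCL8, the neutrophil chemokine interleukin-8 (chromosome 4, 73740506 to 73743716), went from 3.33, 4.03 and 3.33 CPM to 9.47, 12.6 and 8.03 CPM. Replicate 1 was the middle value of its group, which was separate from untransfected cells (1.49 ± 0.27, adjusted p = 0.0136, edgeR). IL32, a proinflammatory cytokine gene, rose by 0.87 ± 0.15 (adjusted p = 0.0112) and TNFAIP3, the NF-kB inhibitor A20, by 0.86 ± 0.21 (adjusted p = 0.0422). Without replicate 1, RELB and BCL3 rose as well and NFKB1 fell, and with total-count scaling 3 rose and 2 fell. Of all tested genes 2.11% rose with all replicates, and 10.1% rose and 11.2% fell without replicate 1. With that scaling 4.44% rose and 21% fell without replicate 1. TNFRSF1B, the second receptor of tumour necrosis factor (chromosome 1, 12167003 to 12209228), went from 0.973, 1.396 and 0.372 CPM to 5.14, 4.22 and 5.48 CPM (2.44 ± 0.42, adjusted p = 0.00995). SLAMF9, a SLAM family receptor (chromosome 1, 159951492 to 159954254), went from 0.656, 1.08 and 0.128 CPM to 6.32, 6.95 and 8.07 CPM (3.52 ± 0.54, adjusted p = 0.00587). In both, replicate 1 lay beside or between its group mates.

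NLRC5, the transactivator of MHC class I genes (chromosome 16, 56989485 to 57083531), fell by 1.15 on the log2 scale (SE 0.27, adjusted p = 0.0361, edgeR), from 12.6, 14.2 and 18.7 CPM to 4.98, 7.88 and 7.58 CPM, lowest in replicate 1. It was the only call among 25 genes of antigen presentation and interferon gamma response. Without replicate 1, HLA-B, HLA-E, B2M, CALR, PDIA3 and CD74 rose; with total-count scaling 4 rose and 2 fell. HLA-E stood at 268.5, 271 and 343 CPM in untransfected cells and at 290.4, 462 and 519 CPM in weak-cloaked cells, with replicate 1 inside the untransfected range. SERPINA3, an acute-phase protease inhibitor, rose from 58.9 to 84.7 CPM to 96.8, 150.3 and 166 CPM (0.95 ± 0.22, adjusted p = 0.0347), 1 of 22 acute-phase genes. With total-count scaling none of the 22 rose and 5 fell, and the list median went from -0.18 to -0.38. Over all tested genes 2.11% were called higher with all replicates, and 2.49% lower with total-count scaling. Leaving out replicate 1 gave 10.1% higher, or 4.44% higher and 21% lower with that scaling.

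**Figure D4:**
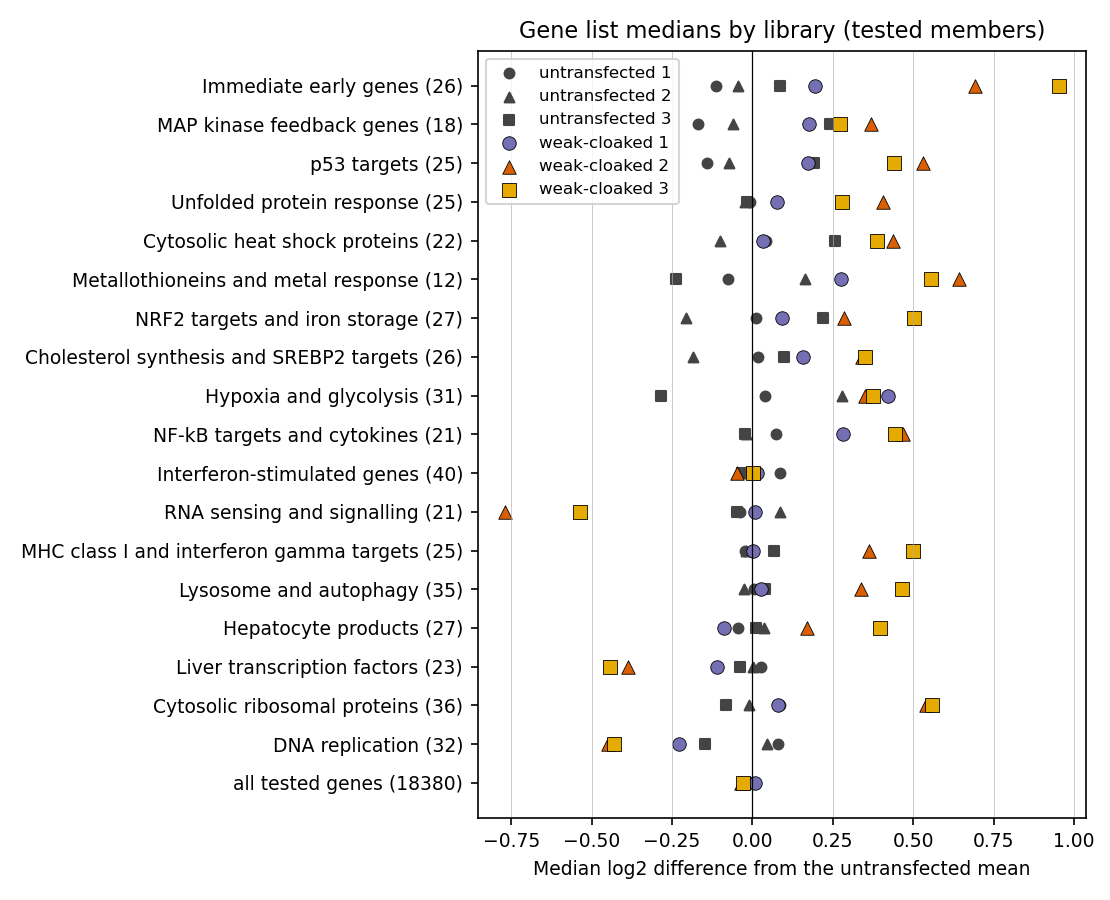
Median log2 difference from the untransfected mean over the tested members of 18 gene lists and over all tested genes (number in parentheses), for each untransfected (grey) and weak-cloaked (coloured) library. For RNA sensing replicate 1 is at 0.01 and replicates 2 and 3 at -0.77 and -0.54; for hypoxia and glycolysis the 3 weak-cloaked libraries lie at 0.42, 0.35 and 0.37.

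Ligands of the activin and TGF-beta family rose and the activin antagonist FST (follistatin; chromosome 5, 53480409 to 53487134) fell. FST stood at 51.1, 30.1 and 80.6 CPM in untransfected cells and at 14.6, 8.96 and 9.95 CPM in weak-cloaked cells. All weak-cloaked values were below all untransfected ones, and the change was -2.27 ± 0.30 (adjusted p = 0.00221, edgeR). INHBB, the activin beta B subunit, went from 4.12, 6.91 and 5.29 CPM to 12.4, 11.8 and 12.1 CPM (1.15 ± 0.21, adjusted p = 0.0152), highest in replicate 1. INHBE, the hepatokine subunit beta E, rose by 0.69 ± 0.13 (adjusted p = 0.0174) and TGFB1 by 0.83 ± 0.16 (adjusted p = 0.0175). TGFB1 stood at 85.3, 85.5 and 87.6 CPM in untransfected cells and at 110, 162 and 189 CPM in weak-cloaked cells. With 4 called higher and FST lower, the other 26 of 31 genes did not pass, and the median was -0.24. Without replicate 1, the binding protein FSTL3 rose in addition, and INHBC, SKIL, TGFBR1 and HAMP fell. With total-count scaling 4 rose and 10 fell without replicate 1. Over all tested genes, 10.1% rose and 11.2% fell without replicate 1, or 4.44% and 21% with that scaling.

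The labelled cell type was checked with hepatocyte genes, which were present in all 6 libraries. ALB stood at 5395 to 6439 CPM in untransfected cells and at 5595, 6002 and 4877 CPM in weak-cloaked cells, and AFP at 252 to 274 and at 246, 274 and 220.4 CPM; neither passed (ALB -0.09, adjusted p = 0.730; AFP -0.08, adjusted p = 0.715, edgeR). Of 27 hepatocyte products APOM, an apolipoprotein, fell (-0.83 ± 0.18, adjusted p = 0.0270), from 74.0 to 88.3 CPM to 30.9, 51.2 and 53.6 CPM, and no other passed. Without replicate 1, 9 rose, among them SERPINA1, APOA1, RBP4 and ASGR1, while APOM and APOB fell. ASGR1, the asialoglycoprotein receptor, stood at 414 to 472 CPM in untransfected cells and at 453, 689 and 744 CPM in weak-cloaked cells. With total-count scaling the median of the list went from 0.17 to -0.04, and 5 rose and 4 fell without replicate 1. Of all tested genes 10.1% rose and 11.2% fell without replicate 1, or 4.44% and 21% with that scaling.

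The liver transcription factors that were called fell. NR5A2, a nuclear receptor of bile acid and cholesterol metabolism (chromosome 1, 200027602 to 200177424), went from 6.65, 5.78 and 9.34 CPM to 3.54, 3.56 and 2.11 CPM. All weak-cloaked libraries were below the untransfected ones, replicate 1 level with replicate 2, and the gene fell by 1.24 on the log2 scale (SE 0.27, adjusted p = 0.0257, edgeR). It was 1 of 2 called among 23. HNF4A, the central regulator of hepatocyte genes, stood at 271, 267 and 221 CPM and at 199, 130.1 and 159 CPM (-0.64 ± 0.18, adjusted p = 0.0648), and was called without replicate 1 with FOXA2, ONECUT1, CEBPA and GATA6, so that 7 fell and none rose. The list median was -0.30 with all replicates and -0.43 without replicate 1, against -0.03 and -0.06 over all tested genes. With total-count scaling 4 fell with all replicates and 13 without replicate 1, and none rose. With and without replicate 1, 1.19% and 11.2% of all tested genes fell, or 2.49% and 21% with that scaling.

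Of 18 cytochrome and glucuronosyltransferase genes 4 rose, CYP1A1, UGT1A1, UGT2B4 and UGT2B7. UGT1A1, which conjugates bilirubin (chromosome 2, 233760248 to 233773299), went from 150.0, 111 and 202 CPM to 342, 766 and 739 CPM (2.00 ± 0.32, adjusted p = 0.00727, edgeR). The UGT1A genes share exons, so its counts are uncertain. UGT2B4 went from 55.9, 53.4 and 64.1 CPM to 100.1, 115 and 85.3 CPM (0.79 ± 0.13, adjusted p = 0.00766), with replicate 1 between its group mates. CYP1A1, a target of the aryl hydrocarbon receptor, rose by 0.91 ± 0.18 (adjusted p = 0.0184). The list median, 0.07, became -0.11 with total-count scaling, and 4 rose without replicate 1 instead of 7. Of all tested genes 2.11% rose with all replicates and 10.1% without replicate 1, or 1.27% and 4.44% with that scaling.

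Markers of cell types other than hepatocytes were checked in the same way. Of 15 leukocyte markers 12 were tested, PTPRC, MS4A1 and KLRD1 were at 0 in all 6 libraries, and the summed level was 1158 to 1578 CPM in untransfected cells and 940, 1278 and 1047 CPM in weak-cloaked cells, nearly all of it LYZ. CD68, a lysosomal glycoprotein used as a macrophage marker, rose from 29.4, 5.25 and 26.0 CPM to 51.6, 86.3 and 93.1 CPM (1.93 ± 0.45, adjusted p = 0.0394, edgeR). Of 14 fibroblast and endothelial markers 11 were tested, THY1 and EMCN were at 0, and the sum was 24.2 to 29.4 CPM against 27.2, 36.0 and 35.3 CPM; TIE1 rose (1.55 ± 0.19) and PDGFRB fell (-1.46 ± 0.33). Of 15 markers of other epithelial lines 9 were tested, KRT6A, TP63 and KLK3 were at 0, the sum was 525 to 606 CPM against 654, 664 and 699 CPM, and KRT17 (1.72 ± 0.32) and TFF1 (2.33 ± 0.54) rose. The part of these genes in other results was not tested.

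As over all tested genes, of which 3.29% were called with all replicates and 21.3% without replicate 1, more lysosomal, endosomal and ribosomal genes were called without it. Of 35 lysosome and autophagy genes LGALS3, the galectin that marks damaged endosomes, was called with all replicates; it went from 109, 145 and 101 CPM to 192, 226 and 190.5 CPM (0.78 ± 0.19, adjusted p = 0.0426, edgeR), with replicate 1 level with the others. Without replicate 1, 14 rose, among them the cathepsins CTSA, CTSB, CTSD and CTSL and the cholesterol exporters NPC1 and NPC2, and MITF fell. With total-count scaling 4 rose and 3 fell without replicate 1, where 4.44% of all tested genes rose and 21% fell. CTSD stood at 787 to 839 CPM in untransfected cells and at 843.5, 1294 and 1525 CPM in weak-cloaked cells. The list median was 0.03 in replicate 1 and 0.34 and 0.47 in replicates 2 and 3.

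None of 36 endosome and vesicle traffic genes was called with all replicates. Without replicate 1, the small GTPase genes RAB5B, RAB7A, RAB11A and RAB11B, the ESCRT gene CHMP2A, the clathrin light chain CLTB and the AP2 adaptor genes AP2A1 and AP2M1 rose. VPS4B, TSG101 and CHMP6 of the ESCRT machinery and VPS18 fell. The balance of 8 higher and 4 lower turned to 3 higher and 11 lower with total-count scaling. Over all tested genes that scaling moved the balance from 10.1% higher and 11.2% lower to 4.44% higher and 21% lower. VPS4B, an ATPase that releases ESCRT filaments, stood at 25.4 to 28.9 CPM in untransfected cells and at 28.0, 9.77 and 9.93 CPM in weak-cloaked cells, with replicate 1 inside the untransfected range.

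Of 36 cytosolic ribosomal protein genes RPL11 (0.50 ± 0.12, adjusted p = 0.0354, edgeR) and RPL37 (0.46 ± 0.11, adjusted p = 0.0381) rose with all replicates, and 31 rose without replicate 1, or 21 with total-count scaling. The list median was 0.08 in replicate 1 and 0.54 and 0.56 in replicates 2 and 3. Replicate 1 lay inside the untransfected range in 16 of the 31, against 41.1% of all genes called without it. RPL11 stood at 1357, 1391 and 1220 CPM in untransfected cells and at 1597, 2118 and 1914 CPM in weak-cloaked cells. Ribosomal protein genes have many processed pseudogenes, so their counts are uncertain.

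The genes of DNA replication that were called fell. Of 32 tested, 4 fell (MCM5, GINS3, POLA2 and CHAF1A) and none rose, with a median of -0.35. CHAF1A, the large subunit of a histone chaperone (chromosome 19, 4402662 to 4445018), went from 70.7, 56.8 and 51.2 CPM to 39.5, 21.3 and 27.8 CPM, all below the untransfected values (-1.01 ± 0.24, adjusted p = 0.0372, edgeR). GINS3, a part of the replicative helicase, fell by 0.91 on the log2 scale (SE 0.21, adjusted p = 0.0359) and POLA2, a subunit of the primase complex, by 0.61 (SE 0.14, adjusted p = 0.0347). Without replicate 1, 14 fell, among them POLA1, PRIM1, PRIM2 and UHRF1, while CDT1 and RRM2 rose. With total-count scaling 10 fell with all replicates and 24 without replicate 1, and none rose. With offsets for length and GC and without replicate 1, 2 rose and 10 fell, and the list median went from -0.46 to -0.27. The shares of all tested genes that fell were 1.19% with all replicates and 11.2% without replicate 1. Without replicate 1 they were 21% with total-count scaling and 7.99% with the offsets. Of 30 mitotic genes none was called with all replicates, and without replicate 1 CDC20 rose and 9 fell, among them KIF11, CENPF, HMMR and MKI67. With the same offsets 4 mitotic genes rose and 6 fell without replicate 1, and the list median turned from -0.11 to 0.11. With total-count scaling none rose and 11 fell. KIF11, a spindle motor, stood at 39.3, 43.9 and 60.4 CPM in untransfected cells and at 46.8, 20.7 and 13.6 CPM in weak-cloaked cells, with replicate 1 inside the untransfected range.

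Of the replication-dependent histone genes, 1 of 16 rose with all replicates, H2BC21 (2.17 ± 0.47, adjusted p = 0.0263, edgeR). Without replicate 1, 6 rose, or 5 with total-count scaling. Poly(A) selection recovers few histone mRNAs, which mostly lack a poly(A) tail. Among 19 clock genes the repressor NFIL3 rose (0.92 ± 0.21, adjusted p = 0.0341) from 81.6 to 99.97 CPM to 112, 217.5 and 202 CPM. NR1D1 (REV-ERB alpha) stood at 21.4, 23.8 and 29.7 CPM in untransfected cells and at 26.9, 105 and 114 CPM in weak-cloaked cells, and was called without replicate 1 (2.13 ± 0.29, adjusted p = 0.00073, edgeR). In all, 6 clock genes rose without replicate 1 (NFIL3, NR1D1, PER1, CRY2, DBP and NPAS2) and 4 fell (CLOCK, ARNTL, CRY1 and BHLHE41). Replicate 1 lay inside the untransfected range in 7 of these 10, against 41.1% of all genes called without it. Without replicate 1, 5 clock genes rose and 4 fell with total-count scaling, and 8 rose and 1 fell with length and GC offsets. None of 13 mitochondrially encoded mRNAs was called with all replicates, and MT-ND3, MT-CO3 and MT-ATP8 fell without replicate 1. In that fit 5 fell with total-count scaling and 1 with the offsets. Of all tested genes 2.11% rose with all replicates. Without replicate 1, 10.1% of them rose and 11.2% fell, or 4.44% and 21% with total-count scaling, and 7.99% fell with the offsets. The mitochondrial share of counts was 3.55% to 4.02% in untransfected cells and 3.83%, 3.39% and 3.22% in weak-cloaked replicates 1 to 3.

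The other genes with the largest changes had varied known roles. KRTAP3-1 (chromosome 17, 41008521 to 41019324), whose product binds hair keratins, went from 3.65, 5.89 and 5.00 CPM to 18.3, 49.9 and 53.2 CPM (3.06 ± 0.33, adjusted p = 0.000767, edgeR), with replicate 1 between the groups. TPSAB1, a tryptase gene with near-identical neighbours, rose by 2.45 ± 0.28 (adjusted p = 0.00116) and C17orf49, which encodes a chromatin-associated protein, by 2.35 ± 0.39 (adjusted p = 0.00766). Among the decreases, the orphan nuclear receptor gene NR6A1 (chromosome 9, 124517275 to 124771310) went from 28.98, 13.9 and 40.5 CPM to 4.46, 6.84 and 6.23 CPM (-2.25 ± 0.48, adjusted p = 0.0265). The anaphase-promoting complex gene CDC27 went from 44.4, 36.3 and 35.5 CPM to 17.1, 6.51 and 5.16 CPM (-2.01 ± 0.51, adjusted p = 0.0486). DEPP1, a FOXO target that regulates autophagy, fell by 1.92, the pseudokinase gene FAM20A by 1.65, the kinase gene WNK4 by 1.64 and the ion channel regulator gene TCAF1 by 1.59 on the log2 scale. In NR6A1, DEPP1, WNK4 and TCAF1 replicate 1 lay at or beyond the level of replicates 2 and 3 or between them. Of the 605 called genes 1, OMA1, differed 8-fold between replicates of a group, as did 664 of all tested genes.

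With edgeR, 1 gene of 18380 (0.00544%) was called in weak-cloaked cells against the mean of the non-, medium- and strong-cloaked groups. This was SPAG1, a dynein assembly factor (chromosome 8, 100157906 to 100259278), which stood at 16.3, 9.67 and 8.68 CPM in weak-cloaked cells and at 0.146 to 0.377 CPM in the 9 other transfected libraries. Untransfected cells held 10.8, 13.8 and 23.6 CPM and overlapped with the weak-cloaked libraries. The difference from the other transfected groups was 5.49 ± 0.29 (adjusted p = 7.59e-07, edgeR), or 5.16 without replicate 1, and against untransfected cells it was -0.48 ± 0.37 (adjusted p = 0.470). All 3 weak-cloaked libraries, replicate 1 included, stood far above the other transfected libraries.

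**Figure D5:**
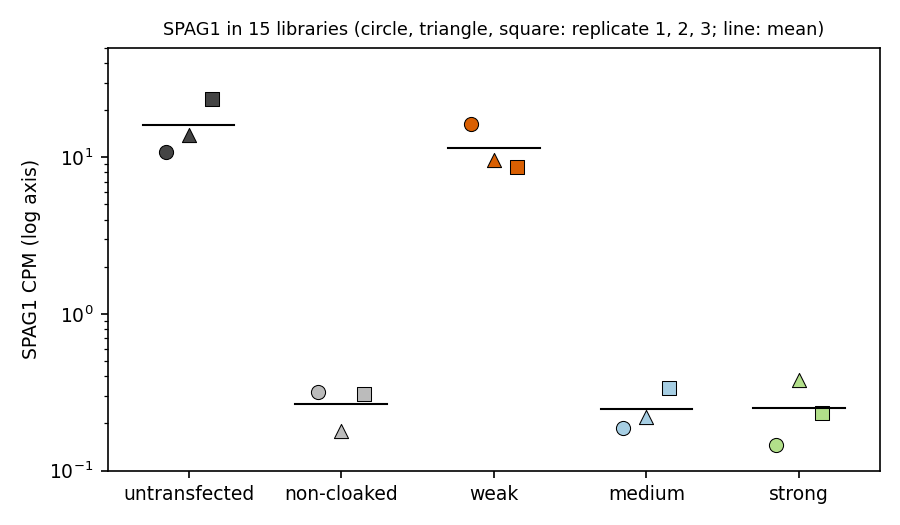
SPAG1 CPM on a log axis in the 15 libraries by group, with a circle, triangle and square for replicates 1, 2 and 3 and a line for the mean. The weak-cloaked libraries at 8.68 to 16.3 CPM lie among the untransfected ones, and the 9 other transfected libraries lie at 0.146 to 0.377 CPM.

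Without replicate 1, a second gene was called against the other transfected groups (2 of 18823, 0.0106%; 1 higher and 1 lower, 0.00531% each). MZT2A, a component of the microtubule-nucleating complex, stood at 60.7, 11.7 and 17.6 CPM in weak-cloaked replicates 1 to 3 and at 33.4 to 93.2 CPM in the 9 others (-2.03 ± 0.26, adjusted p = 0.0340, edgeR). Replicate 1 lay within the range of the others and replicates 2 and 3 below it. At an unadjusted p below 0.05 the numbers were 554 genes (3.01%) with all replicates and 708 (3.76%) without replicate 1, and DESeq2 called 14. The next smallest p values belonged to C17orf49 (1.81 ± 0.28, adjusted p = 0.140), NOS3, the endothelial nitric oxide synthase (-1.84 ± 0.30, adjusted p = 0.180), BCORL1, a transcriptional corepressor (-1.001 ± 0.17, adjusted p = 0.180), and PIK3R5, a regulatory subunit of phosphoinositide 3-kinase (-1.403 ± 0.26, adjusted p = 0.367). C17orf49 stood at 20.8, 7.80 and 31.6 CPM in weak-cloaked cells and at 4.65 to 6.70 CPM in the others, without overlap. G6PC1 did not separate them, at 2.85 to 5.75 CPM in weak-cloaked cells and 3.21 to 7.87 CPM in the others (-0.28 ± 0.27, adjusted p = 1.0). Over tested genes the unadjusted 95% interval of a log2 difference reached a median of 0.51 to either side in this comparison and 0.62 in that with untransfected cells. Differences well above it, such as that of NOS3, did not pass after adjustment in edgeR. In DESeq2, C17orf49 (adjusted p = 1.63e-05), NOS3 (5.35e-07), BCORL1 (1.17e-05) and PIK3R5 (0.00132) were among the genes called.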

How the data were processed

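Poly(A)-selected, strand-specific libraries were sequenced as 150 bp paired-end reads, per the labels' protocols. The authors deposited raw read counts per gene symbol (41412 rows, 14176 of them 0 throughout). GRCh38, HISAT2, HTSeq, R 4.4.2 and DESeq2 1.46.0 are listed in the submitters' processing notes. Annotation release and strand setting are not given in those sources, so overlapping and near-identical genes are uncertain. Groups and replicates came from the sample titles, and no pair of the 15 libraries agreed within sampling noise (chi-square per gene of at least 77.0 over 105 pairs, where counting error alone gives about 1).

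The counts were fitted with edgeR 4.0.16 (R 4.3.3), using filterByExpr, TMM scaling, robust dispersions and the quasi-likelihood test. The fit had a mean for each group over all 15 libraries. The procedure was also run on simulated counts without an outlying library, so that run cannot show how it behaves with replicate 1. CPM use TMM-scaled library sizes; errors are standard errors from the F statistic. The biological coefficient of variation was 0.344. Positions are from GENCODE release 29, which annotated 18338 tested genes (99.8%). The alternatives were DESeq2 1.42.0, other scalings and filters, the 6 libraries alone, a replicate block, leaving out each library and, chosen after seeing the data, length and GC offsets and leaving out replicate 1 together with another choice.

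The comparison and the 36 gene lists were chosen with earlier results of these data known. Genes named were the 8 largest called increases and decreases (mean log2 CPM of at least 1, no overlap), up to 3 called members per list by smallest p (or 2 where none passed), the 5 of smallest p against other transfected cells, G6PC1 and ISG15. Members called without replicate 1, and members in small counts, were named after their values were seen; some genes that meet the rule are not reported here.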

Additional observations from a re-analysis of the deposited data

Results flagged for a closer look

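SPAG1 differed between weak-cloaked cells and the mean of the other transfected groups by 5.49 on the log2 scale in a test of the difference itself (adjusted p = 7.59e-07, edgeR). Its value in weak-cloaked replicate 1, 16.3 CPM, was above those in replicates 2 and 3. No cause was tested.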

How the results depend on the processing

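The count of genes called in weak-cloaked against untransfected cells was 605, and 114 to 4007 with 1 library left out. It was 2012 with DESeq2 (1142 higher), 1365 with length and GC offsets (70.3% higher), and 4 with the 6 libraries fitted alone. The cause was not tested. RLE size factors (607), non-robust spread (601), total-count scaling (690), a filter of 50 counts in 3 libraries (844) and no filter (452) stayed within 1.5 times. Without replicate 1, the 4007 calls became 1906 with the compared libraries alone, and 1704 to 3633 with a further library left out, the lowest without weak-cloaked replicate 3; with total-count scaling 17.4% of 4796 were higher, against 47.3%. Same-numbered weak-cloaked and untransfected libraries did not deviate together (correlations of deviations -0.0134, -0.00951 and -0.0361). With 3 libraries per group, 1 of them outlying, this cannot show whether the numbers pair the samples. The replicate block called 816 genes, and 3143 without replicate 1. Against the other transfected groups 1 gene was called, 14 with DESeq2, and 1 to 3 with a library left out. Of 76 named called genes, 62 were called under total-count scaling, 1 with the 6 libraries alone, and 21 or 23 without weak-cloaked replicate 2 or 3; none changed sign. MT-ND4, which was not called (-4.77, adjusted p = 0.0779, edgeR), was -5.34 without untransfected replicate 1 and turned to 0.47 without untransfected replicate 3, where its row held 13.4 CPM against 0.109 to 0.174 CPM in the other 5 libraries. Counting error is small at these depths for genes with many reads, where the spread between 3 replicates limits precision. It is not small for genes near 0 CPM in a library. Among those are SLC2A10 in untransfected replicate 1 (0.0729 CPM) and, in untransfected replicate 3, SLAMF9 (0.128 CPM) and TFF1 (0.0813 CPM).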
